A study of Mus musculus with 6 samples.

Results

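Striatal RNA-seq of Shank3-overexpressing mice was examined for the genes of sterol and fatty acid synthesis that sterol regulatory element-binding proteins (SREBPs) control. These genes were chosen by name from a list of 32 symbols, and all 32 were found by Ensembl ID among the 46078 genes of the deposited table. All 32 passed the filter on low genes (a 6-library average of 10 normalized reads or more) and were therefore among the 17605 genes compared between the genotypes. TG mice carried an EGFP-Shank3 transgene, which adds the excitatory postsynaptic scaffold protein Shank3 tagged with green fluorescent protein, and the WT mice did not. Both genotypes were C57BL/6J males aged 12 weeks, with 3 mice each, and the dissected striatum of each mouse was sequenced as 1 bulk library. The promoter that drives the transgene and the cells that express it are not given in the sources used here. In such tissue, fewer cells of a type and less RNA per cell cannot be told apart.

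SREBPs are transcription factors made as membrane proteins of the endoplasmic reticulum, where Insig proteins hold them back through their escort Scap while sterols are plentiful. When sterols fall, Scap carries the precursor to the Golgi, proteases release its DNA-binding end, and this fragment switches on the enzymes of cholesterol and fatty acid synthesis. SREBP2, encoded by Srebf2, acts mainly on sterol genes, and the SREBP1c form of Srebf1 acts mainly on fatty acid genes. The brain makes its own cholesterol because plasma lipoproteins do not cross the blood-brain barrier, and myelinating oligodendrocytes and astrocytes are known as its main producers.

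The 6 libraries held 27689589 to 36647626 reads on genes. Shank3 (ENSMUSG00000022623, chr15:89499623-89560261, + strand, GRCm38), the overexpressed gene, was counted at 29891, 28309 and 26044 in TG 1 to 3 and 13807, 12918 and 13865 in WT 1 to 3. Its log2 fold change (TG minus WT) was 1.05 ± 0.0597 (SE), a 2.07-fold difference with an adjusted p of 7.04e-05 in limma, and the groups did not overlap. The 10 medium spiny neuron markers, which define the main neurons of the striatum, were all present, with summed values of 122410 to 171839 in TG and 148255 to 171416 in WT (Pde10a was the most abundant). Library TG 1 stood apart in the choroid plexus markers, whose sum was 15605 there and 569.6 to 2003 in the other 5 libraries. All 10 medium spiny neuron markers were also lowest in TG 1 among the TG mice, with a median log2 ratio to the WT mean of -0.381. Library TG 2 had the lowest sum of the 8 cortical excitatory neuron markers, 29246, against 34336 to 42171 in the other 5. The members are therefore also given without single libraries.

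Promoter DNA, where SREBPs and their partners bind, is shown here for 6 members of the 4 roles described below. Promoter windows of 300 bases, from 250 before to 50 after the annotated start, were taken from RefSeq (GRCm38.p6) for 25 of the 32 members. Each is printed 5′ to 3′ on the strand of its gene. Capitals mark matches, on either strand, to TCACNCCAC, a form of the sterol regulatory element, to which SREBPs bind, and to CCAAT, the box of the factor NF-Y, which often acts beside them. A CCAAT on the opposite strand reads ATTGG. Hmgcs1 was the member with a match to TCACNCCAC, and the other 5 are members whose values are given in full.
Hmgcs1, chr13:119690101-119690400, + strand: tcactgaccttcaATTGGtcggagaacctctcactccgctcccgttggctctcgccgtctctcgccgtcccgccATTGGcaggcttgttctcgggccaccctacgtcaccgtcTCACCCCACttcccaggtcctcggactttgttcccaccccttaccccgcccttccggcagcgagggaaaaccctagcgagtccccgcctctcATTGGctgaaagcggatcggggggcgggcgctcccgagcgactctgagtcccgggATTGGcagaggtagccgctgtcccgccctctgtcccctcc
Idi1, chr13:8885356-8885655, + strand: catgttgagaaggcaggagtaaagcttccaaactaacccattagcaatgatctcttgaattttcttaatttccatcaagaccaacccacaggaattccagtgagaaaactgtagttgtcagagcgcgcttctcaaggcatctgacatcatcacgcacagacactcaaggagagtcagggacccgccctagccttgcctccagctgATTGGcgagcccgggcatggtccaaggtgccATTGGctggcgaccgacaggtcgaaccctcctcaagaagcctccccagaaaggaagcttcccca
Cyp51, chr5:4104648-4104947, - strand: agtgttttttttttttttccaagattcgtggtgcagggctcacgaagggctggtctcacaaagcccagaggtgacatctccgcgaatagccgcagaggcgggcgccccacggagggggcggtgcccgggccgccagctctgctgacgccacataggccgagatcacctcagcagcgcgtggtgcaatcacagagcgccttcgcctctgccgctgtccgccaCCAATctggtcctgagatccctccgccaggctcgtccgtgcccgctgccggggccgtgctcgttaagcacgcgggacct
Srebf2, chr15:82147019-82147318, + strand: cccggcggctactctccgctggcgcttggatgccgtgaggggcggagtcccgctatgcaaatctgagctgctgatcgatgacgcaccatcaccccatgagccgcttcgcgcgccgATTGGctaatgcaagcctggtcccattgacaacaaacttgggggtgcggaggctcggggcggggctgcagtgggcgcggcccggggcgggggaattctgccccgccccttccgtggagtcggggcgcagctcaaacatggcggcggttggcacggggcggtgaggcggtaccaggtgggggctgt
Insig1, chr5:28071162-28071461, + strand: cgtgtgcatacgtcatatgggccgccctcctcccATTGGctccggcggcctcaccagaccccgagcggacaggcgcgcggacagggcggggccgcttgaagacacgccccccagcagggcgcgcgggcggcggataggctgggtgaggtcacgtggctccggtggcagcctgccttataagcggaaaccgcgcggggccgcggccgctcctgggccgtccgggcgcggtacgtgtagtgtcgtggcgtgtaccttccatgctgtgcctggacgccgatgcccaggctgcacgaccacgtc
Fasn, chr11:120824498-120824797, - strand: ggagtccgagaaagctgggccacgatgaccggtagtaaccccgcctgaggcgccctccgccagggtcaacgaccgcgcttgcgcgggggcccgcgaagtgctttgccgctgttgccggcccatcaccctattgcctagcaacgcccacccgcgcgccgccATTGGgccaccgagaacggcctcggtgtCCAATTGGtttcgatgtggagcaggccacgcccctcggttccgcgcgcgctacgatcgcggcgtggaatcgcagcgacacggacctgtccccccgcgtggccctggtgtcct

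In the Hmgcs1 window the match TCACCCCAC began 137 bases before the start, and 4 CCAAT boxes lay around it. The longest capital run in the Fasn window holds a CCAAT box on each strand, which overlap. The letters TCACNCCAC were matched in 1 of the 25 members (4%) and in 1.436% of 27025 genes with a window. Other forms of the sterol regulatory element were not searched for, so a window without this match may still hold one. CCAAT was more widespread, in 20 of 25 members (80%) against 41.06% of all genes. It was present in all 9 squalene to cholesterol members with a window, in 5 of 6 mevalonate members, in 4 of 5 regulators and in 2 of 5 fatty acid members. The GC box GGGCGG, a site of Sp1, was found in 21 of 25 members (84%) against 38.2% of all genes, and the E box CACGTG in 5 of 25 (20%) against 8.093%. None of the motifs contains another. The 27025 genes were not limited to expressed or coding genes, whereas all members are expressed coding genes, so the shares are not of like sets. In 13 of 16 member windows on the + strand and 14 of 17 on the - strand, the first 25 bases from the start occurred in a transcript of the gene. These are matches of letters in a window and were not tested as binding sites.

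Levels were compared between members per kb of exon, as the mean of the 6 libraries. Scd2, the stearoyl-CoA desaturase that predominates in brain, stood far above the rest at 10159 normalized reads per kb, a level above that of 99.7% of genes tested. Hmgcs1, the synthase that makes HMG-CoA at the entry to the mevalonate pathway, followed at 1842, then Scd1 at 1657 and Fads1, a desaturase of polyunsaturated fatty acids, at 1572. Srebf2 (1156 per kb) stood above Srebf1 (368 per kb), and Insig1 (822 per kb) above Insig2 (391 per kb). At the other end, Lss and Tm7sf2 were at 143 and 134 per kb, and Fdps was listed at 9.97 per kb, a level above that of only 9.61% of genes tested. For Lss all annotated exons cover 10787 bases, against 4667 in its longest coding transcript, and for Tm7sf2 4403 against 1498. The low places of Lss and Tm7sf2 therefore depend on the length used. Of all read-length words (stretches as long as a sequenced read) in the longest coding transcript of Fdps, 75.6% also occur in transcripts of Gm43738, Gm3571 and Gm5873. Reads that fit more than 1 gene may therefore be missing from its count, and its level is uncertain.

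**Figure D1:**
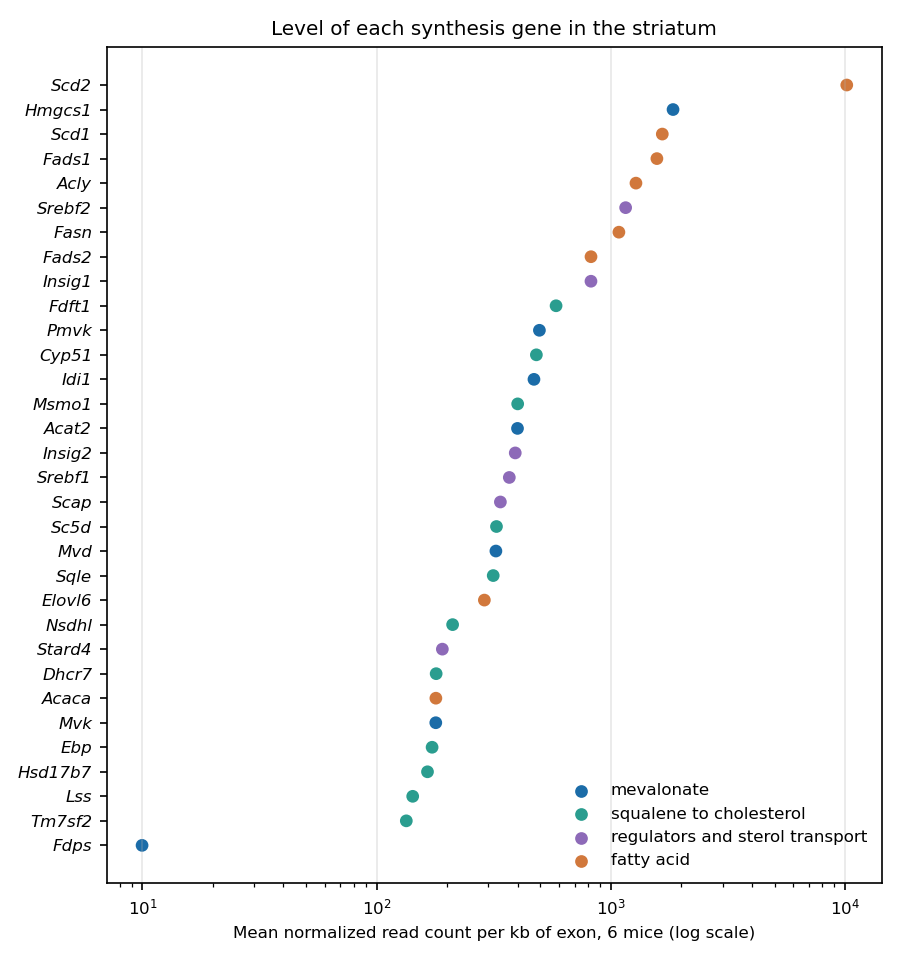
Mean normalized read count per kb of exon over the 6 mice (log scale) for each of the 32 genes, ordered by level and coloured by role. Exon length is that of all annotated exons of a gene, and the order depends on it. Scd2 is alone at the top at 10159, most genes lie between 134 and 1842, and Fdps is alone at the bottom at 9.97.

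Between TG and WT, none of the 32 genes was called. With limma on log2(normalized count + 1) and Benjamini-Hochberg adjustment over all genes tested, their adjusted p ranged from 0.971 to 0.997, and the background of calls was 0.00568% (1 gene, Shank3). DESeq2, edgeR and limma-voom on the recovered reads also called 0 of the 32, with backgrounds of 0.0398%, 0.00568% and 0.00568%. An unadjusted limma p under 0.05 was reached by 1 member, Scd1, which was lower in TG and is 3.125% of the members against 4.31% of all genes tested (2.33% lower and 1.98% higher), and the same gene was the only one under 0.05 by each of the other 3 tools (backgrounds 2.45%, 4.38% and 4.24%). Groups that did not overlap were seen in 2 members (6.25%), Scap and Scd1, both lower in TG, against 10.1% of all genes (5.05% lower and 5.06% higher). With 3 mice against 3, the exact permutation test cannot go below p = 0.1.

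The differences were small in every role. The log2 fold changes ranged from -0.14 (Srebf1) to 0.11 (Idi1), with a median of 0.03 against -0.0018 over all genes tested. None of the 32 exceeded a 1.2-fold difference, which 9.09% of all genes tested did. Of the 32 intervals at 95%, 27 lay within 1.2-fold in either direction, against 49.2% of all genes. The 5 that reached beyond were those of Idi1, Pmvk, Mvd, Fdps and Srebf1, and that of Fdps was the widest, from -0.32 to 0.51 on the log2 scale. The difference was larger than the within-genotype SD in 9 of the 32, against 5146 of the 17605 genes tested. Every member except Fdps had a mean of at least 100, so genes with such a mean are the closer comparison. Of these 12832 genes, 191 exceeded 1.2-fold, 8661 had intervals within it and 3839 differed by more than the SD. Members higher in TG numbered 20 of 32 (62.5%), against 49.2% of all genes. The median over the members varied by 0.0435 (SD of log2 values) between mice of 1 genotype, more than its difference between the genotypes. Without library WT 2, 16 of 32 members were higher and the median was -0.0046, and without TG 2 it was 0.064. Without TG 1, the library with the choroid plexus signal and the lowest medium spiny neuron markers, 18 were higher and the median was 0.0081.

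**Figure D2:**
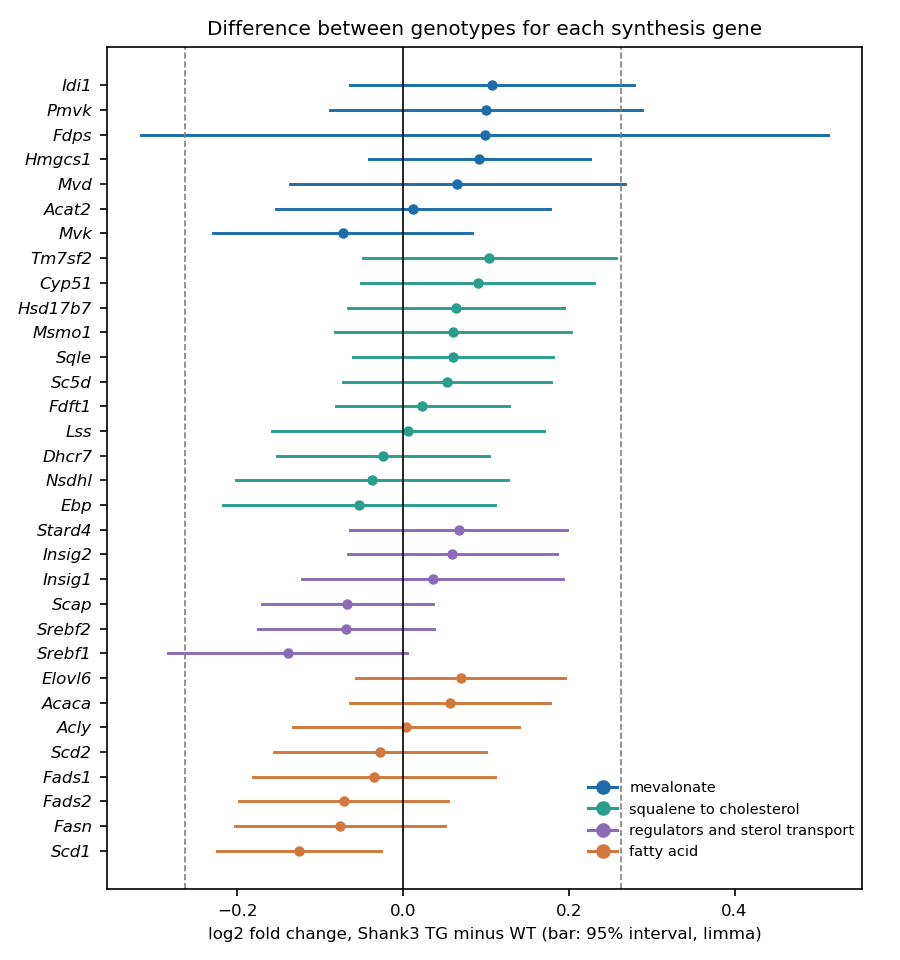
Log2 fold change, TG minus WT, of each of the 32 genes with its 95% interval from limma, grouped by role and ordered within it; the dashed lines mark a 1.2-fold difference. The estimates lie between -0.14 and 0.11, and the interval of Scd1, from -0.22 to -0.03, is the one that does not cross 0.

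The mevalonate members carry acetyl units to farnesyl diphosphate, the last intermediate shared by sterols and other isoprenoids. Of these 7 genes, 6 were higher in TG, with a median log2 fold change of 0.09, less than the SD of that median between mice of 1 genotype (0.107). Hmgcs1 (ENSMUSG00000093930, chr13:119690379-119708260, + strand) was counted at 9321, 7981 and 8914 in TG 1 to 3 and 8152, 7926 and 8477 in WT 1 to 3. TG 1 and TG 3 lay above every WT mouse, and TG 2 lay within the WT range. The log2 fold change of Hmgcs1 was 0.09 ± 0.0603 (SE), with a 95% interval of -0.04 to 0.23 and an unadjusted limma p of 0.157. With 1 library left out it ranged from 0.044 without TG 1 to 0.16 without TG 2. The latter had an unadjusted limma p of 0.0127 and an adjusted p of 0.735. Part of the Hmgcs1 count could belong to a neighbour, since 12.1% of its exon bases lie under exons of Gm48342 and the kit used does not mark the strand.

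Idi1 (ENSMUSG00000058258, chr13:8885501-8892451, + strand), the isomerase that interconverts the building blocks of isoprenoids, was counted at 1872, 1534 and 1718 in TG 1 to 3 and 1706, 1492 and 1550.2 in WT 1 to 3. TG 1 and TG 3 were again the highest, and TG 2 lay among the WT mice. Its log2 fold change, the highest of the 32, was 0.11 ± 0.0774 (SE) with an interval of -0.06 to 0.28, and 27.6% of its transcript's read-length words occur in other genes. Pmvk (ENSMUSG00000027952, chr3:89454541-89469013, + strand), which adds the second phosphate to mevalonate, was counted at 873, 852 and 902 in TG 1 to 3 and 919, 715 and 829 in WT 1 to 3. Here WT 1 was the highest of the 6 and WT 2 the lowest, and the difference was 0.10 ± 0.0852 (SE) on the log2 scale. Fdps, the farnesyl diphosphate synthase (ENSMUSG00000059743, chr3:89093588-89101959, - strand), was counted at only 43.8, 37.1 and 49.7 in TG 1 to 3 and 43.5, 36.5 and 41.2 in WT 1 to 3, with a difference of 0.10 ± 0.19 (SE). The groups overlapped, and these low counts carry the widest interval of the 32.

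Of the other mevalonate members, Mvd, the decarboxylase, differed by 0.07 on the log2 scale and Acat2, a thiolase that joins acetyl units, by 0.012. Of the read-length words of Acat2, 35.1% occur in Acat3 or Tcp1. Mvk, the kinase of mevalonate itself, was the 1 member of this role that was lower in TG (-0.07). The mevalonate median depended on single mice. It was -8.3e-05 without TG 3, 0.0047 without WT 2, 0.044 without TG 1 and 0.127 without TG 2.

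The squalene to cholesterol members make squalene from farnesyl diphosphate, close it into lanosterol and trim that into cholesterol. Of these 11 genes, 8 were higher in TG, with a median log2 fold change of 0.0531, slightly above the SD of that median between mice of 1 genotype (0.0459). All 11 intervals lay within 1.2-fold. Tm7sf2 (ENSMUSG00000024799, chr19:6062821-6068373, - strand), a sterol reductase, was counted at 626, 581 and 624 in TG 1 to 3 and 576, 536 and 593 in WT 1 to 3. TG 1 and TG 3 were above every WT mouse and TG 2 was between WT 1 and WT 3. Its log2 fold change was 0.10 ± 0.0691 (SE), with an interval of -0.05 to 0.26, and 12.1% of its exon bases lie under exons of Vps51.

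Cyp51 (ENSMUSG00000001467, chr5:4081145-4104746, - strand), the lanosterol demethylase, was counted at 2131, 2179 and 2247 in TG 1 to 3 and 2081, 1875 and 2219.7 in WT 1 to 3. WT 2 was the lowest and TG 3 the highest, while WT 3 lay among the TG mice. The log2 fold change of Cyp51 was 0.09 ± 0.0634 (SE), with an interval of -0.05 to 0.23. Hsd17b7 (ENSMUSG00000026675, chr1:169949535-169969241, - strand), the sterol ketoreductase, was counted at 849, 839.6 and 891 in TG 1 to 3 and 854, 796 and 819 in WT 1 to 3. Only TG 3 exceeded all WT mice, and the difference was 0.06 ± 0.0588 (SE).

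Fdft1 (ENSMUSG00000021273, chr14:63145150-63179578, - strand), the squalene synthase, was counted at 2536, 2382 and 2541 in TG 1 to 3 and 2442, 2429.7 and 2465 in WT 1 to 3. It was the highest of this role per kb of all annotated exons, a rank that depends on the length used. Msmo1, for example, has 6144 exon bases and 2044 in its longest coding transcript, against 4227 and 3698 for Fdft1. The WT mice were nearly alike in Fdft1, and TG 2 was the lowest of the 6. The difference of Fdft1 was 0.02 ± 0.047 (SE), with an interval of -0.08 to 0.13, and 18.3% of its exon bases lie under exons of Ctsb. The other positive differences on the log2 scale were those of Sqle, the squalene epoxidase (0.06), Msmo1, the methyl oxidase (0.06), Sc5d, the sterol desaturase (0.05), and Lss, the lanosterol synthase (0.0057). Ebp, the sterol isomerase (-0.05), Nsdhl, a decarboxylase of the demethylation steps (-0.04), and Dhcr7, the sterol reductase that can finish cholesterol (-0.02), were lower in TG. The median of the role was 0.015 without TG 3, 0.018 without WT 2, 0.023 without TG 1 and 0.081 without TG 2.

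The regulators differed in both directions. The 3 genes that encode the transcription factors and their escort had negative differences, and the Insig genes and the sterol carrier Stard4 had positive ones. Srebf1 (ENSMUSG00000020538, chr11:60199089-60222581, - strand) was counted at 2057, 2050.1 and 1821 in TG 1 to 3 and 2022, 2245 and 2259 in WT 1 to 3. TG 3 was the lowest of the 6 mice, WT 2 and WT 3 were the highest, and WT 1 lay below TG 1 and TG 2. The log2 fold change of Srebf1 was -0.14 ± 0.065 (SE), the lowest of the 32, with an interval of -0.28 to 0.0047, an unadjusted limma p of 0.0566 and an adjusted p of 0.971. It was -0.08 without TG 3 and -0.19 without WT 1.

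Srebf2 (ENSMUSG00000022463, chr15:82147181-82205379, + strand), the highest of the regulators per kb, was counted at 8216, 7826 and 8271 in TG 1 to 3 and 8129, 8666 and 8717 in WT 1 to 3. WT 1 lay within the TG range and the other WT mice above it. Its difference was -0.07 ± 0.0478 (SE), with an interval of -0.18 to 0.04. Scap (ENSMUSG00000032485, chr9:110333288-110384950, + strand) was counted at 2465, 2442 and 2451 in TG 1 to 3 and 2575, 2478 and 2659.5 in WT 1 to 3. The TG mice were nearly alike, and each lay below every WT mouse, although WT 2 was only just above TG 1. The log2 fold change of Scap was -0.07 ± 0.0465 (SE), with an unadjusted limma p of 0.177 and an exact permutation p of 0.1, the smallest that 3 against 3 allows. It was -0.043 without WT 3, and 13.2% of the exon bases of Scap lie under exons of 5830462I19Rik.

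Insig1 (ENSMUSG00000045294, chr5:28071363-28078662, + strand), itself a target of SREBPs, was counted at 2735, 2368 and 2618 in TG 1 to 3 and 2627, 2279 and 2629 in WT 1 to 3. The groups overlapped widely, with TG 2 and WT 2 the lowest of their genotypes, and the difference was 0.04 ± 0.0711 (SE). Insig2 (ENSMUSG00000003721, chr1:121304353-121332589, - strand) was counted at 1478, 1315 and 1362 in TG 1 to 3 and 1318, 1341 and 1323 in WT 1 to 3. TG 1 was the highest and TG 2 the lowest of all 6, and the difference was 0.06 ± 0.0568 (SE). Stard4, which carries cholesterol between membranes, differed by 0.07. The median of the 6 regulators was -0.016, and it was 0.017 without TG 2, 0.0073 without WT 3, -0.04 without TG 1, -0.044 without WT 2 and -0.0057 without WT 1.

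**Figure D3:**
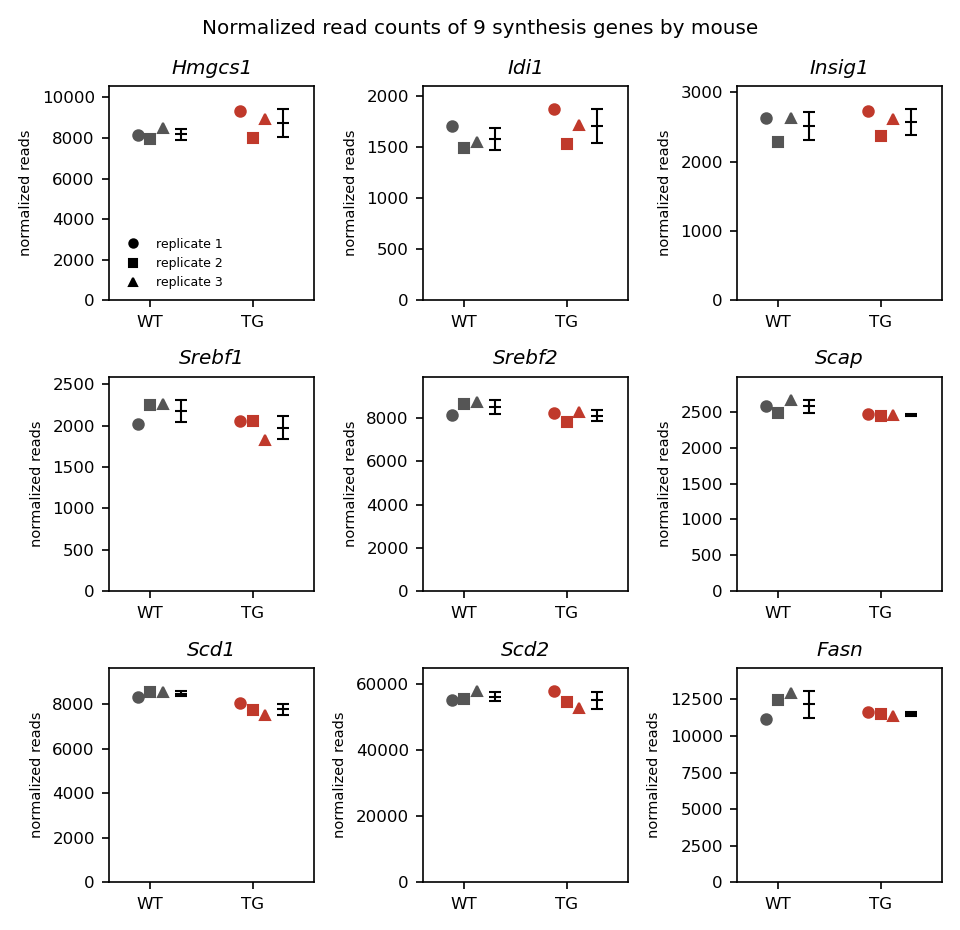
Normalized read counts of 9 of the genes in each mouse (circle, square and triangle for replicates 1, 2 and 3; grey, WT; red, TG), with the mean and SD of each genotype as bars; every axis starts at 0. Scap and Scd1 are the panels without overlap between the genotypes, and in Hmgcs1, Idi1 and Insig1 replicate 2 is the lowest mouse of both genotypes.

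The fatty acid members make malonyl-CoA, build palmitate and then lengthen and desaturate fatty acids. Of these 8 genes, 3 were higher in TG, with a median log2 fold change of -0.03, which was less than the SD of that median between mice of 1 genotype (0.0522). All 8 intervals lay within 1.2-fold. Scd1 (ENSMUSG00000037071, chr19:44394455-44407879, - strand), a stearoyl-CoA desaturase that makes oleate, was counted at 8029, 7728 and 7514 in TG 1 to 3 and 8316, 8527 and 8531 in WT 1 to 3. Every TG mouse lay below every WT mouse, and the WT mice were close together. Means were 7757 ± 258 in TG and 8458 ± 123 in WT (SD, n = 3 each). The log2 fold change of Scd1 was -0.13 ± 0.0447 (SE), with an interval of -0.22 to -0.03, an unadjusted limma p of 0.0180 and an adjusted p of 0.971. The unadjusted p was 0.077 without TG 3, 0.0575 without WT 2 and 0.0532 without WT 3 (limma).

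Scd2 (ENSMUSG00000025203, chr19:44293674-44306864, + strand), its neighbour on the chromosome and the most abundant of the 32, was counted at 57767, 54476 and 52711 in TG 1 to 3 and 54976, 55484 and 57654 in WT 1 to 3. TG 1 was the highest and TG 3 the lowest, so that the TG mice spanned the WT range, and the difference was -0.03 ± 0.0578 (SE) with an interval of -0.16 to 0.10. Only 2.62% of the read-length words of Scd1 and 0.878% of those of Scd2 occur in other genes. Fasn (ENSMUSG00000025153, chr11:120805846-120824547, - strand), the fatty acid synthase, was counted at 11645, 11531 and 11382 in TG 1 to 3 and 11151, 12446 and 12904 in WT 1 to 3. WT 1 was the lowest of the 6 mice, the other WT mice were the highest, and the TG mice lay close together between them. The difference of Fasn was -0.08 ± 0.0572 (SE), with an interval of -0.20 to 0.05. Fads2 (ENSMUSG00000024665, chr19:10062765-10101746, - strand), which starts the desaturation of polyunsaturated fatty acids, was counted at 2788, 2674 and 2468 in TG 1 to 3 and 2651, 2829 and 2849 in WT 1 to 3. Its TG 3 value was the lowest of the 6, the groups overlapped, and the difference was -0.07 ± 0.0568 (SE).

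Elovl6, which lengthens palmitate, differed by 0.07 on the log2 scale and Acaca, the carboxylase that makes malonyl-CoA, by 0.06, both higher in TG. Of the read-length words of Acaca, 42.7% occur in Gm5182. Acly, the lyase that supplies cytosolic acetyl-CoA, differed by 0.0034, and Fads1 by -0.04. The median of the fatty acid members was -0.074 without TG 1, -0.049 without WT 1, -0.02 without WT 3 and -0.004 without TG 3.

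Differences between mice of 1 genotype were shared by the sterol genes. Of the 18 mevalonate and squalene to cholesterol members, only 1 lay above the mean of its own genotype in TG 2, and only 1 in WT 2. TG 2 was the lowest TG mouse in 14 of the 18 and WT 2 the lowest WT mouse in 16 of the 18. Over all genes tested, 49.8% lay above the own-genotype mean in TG 2 and 49.5% in WT 2, and these mice were the lowest of their genotype in 6000 and 5628 of the 17605. In the other mice, 13 and 14 of the 18 lay above the mean in TG 1 and TG 3, and 13 and 15 in WT 1 and WT 3. This pattern was noticed in the values and was not tested.

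The mevalonate members showed it with the largest size. Their median log2 ratio to the WT mean was 0.0968, -0.0576 and 0.124 in TG 1, TG 2 and TG 3 and 0.079, -0.14 and 0.0325 in WT 1, WT 2 and WT 3. The labels do not say whether mice of the same number were handled together. Whether the low TG 2 and the low WT 2 share more than a number therefore cannot be told. Cell type markers also differed in these mice. In TG 2, all 8 cortical excitatory neuron markers were below the TG mean, with a median deviation of -0.319, and all 10 medium spiny neuron markers were above it, with 0.252, while 6 of 12 oligodendrocyte markers were above it, with -0.0088. In WT 2, 9 of 12 oligodendrocyte markers and 5 of 6 endothelial markers were the lowest of the WT mice, with median deviations of -0.0702 and -0.136, while 6 of 8 cortical markers were above the WT mean, with 0.0291, and 2 of 10 medium spiny neuron markers, with -0.0478. Their part in the pattern was not tested.

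**Figure D4:**
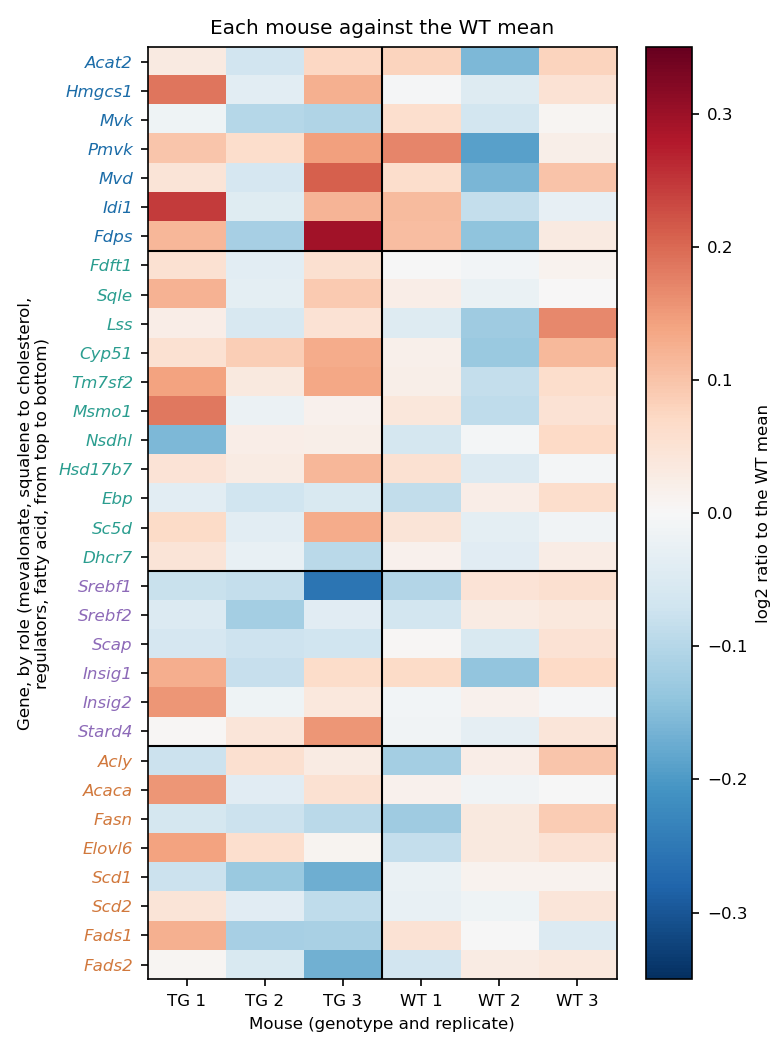
Log2 ratio of each gene (rows, by role from mevalonate at the top to fatty acid at the bottom) to its WT mean in each mouse (columns; red, above; blue, below). The mevalonate rows are mostly blue in TG 2 and all blue in WT 2, with medians of -0.0576 and -0.14.

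The fatty acid genes followed another order among the mice. TG 1 was the highest TG mouse in 7 of 8 and TG 3 the lowest in 5 of 8, WT 3 was the highest WT mouse in 6 of 8 and WT 1 the lowest in 6 of 8. Over all 17605 genes tested, TG 1 was the highest TG mouse in 6332 and TG 3 the lowest in 5163, and WT 3 was the highest WT mouse in 5932 and WT 1 the lowest in 6069. Astrocyte markers had the same order in TG, with TG 1 the highest in 8 of 10 (median deviation 0.114, beside 0.0714 for the fatty acid genes) and TG 3 the lowest in 7 of 10 (-0.0991, beside -0.0523). Choroid plexus markers had it too, with TG 1 the highest in 9 of 9 and TG 3 the lowest in 8 of 9. So did oligodendrocyte precursor markers, with 3 of 5 and 4 of 5. In the other marker lists, TG 3 was not the lowest TG mouse in most markers. Among the WT mice, WT 1 was the lowest in 6 of 10 astrocyte markers, and WT 2 and WT 3 were each the highest in 4. In WT 3, all 12 oligodendrocyte markers, led by the myelin gene Mbp, were above the WT mean, with a median deviation of 0.109 beside 0.0397 for the fatty acid genes. The summed oligodendrocyte markers were 263421 to 273466 in TG and 264087 to 299979 in WT, and 4 of 12 were higher in TG (Mbp -0.11 on the log2 scale). The astrocyte sums were 142861 to 149786 in TG and 142807 to 149885 in WT, with 5 of 10 markers higher in TG (Slc1a2 0.03, Aldoc -0.07). All 8 microglia markers were lower in TG, 4 of them (50%, against 4.31% of all genes tested) with an unadjusted limma p under 0.05 and none called. The groups did not overlap in 4 of the 8 (50%, against 10.1% of all genes). The microglia sums were 12116 to 13029 in TG and 13152 to 13787 in WT (Csf1r -0.09). Of the medium spiny neuron markers, 9 of 10 were lower in TG, with a median log2 fold change of -0.14 and none with an unadjusted limma p under 0.05. All 9 choroid plexus markers tested were higher in TG, with a median of 1.30. This did not hold in each mouse, since their median log2 ratio to the WT mean was 2.99 in TG 1, 1.19 in TG 2 and -0.326 in TG 3. Of the oligodendrocyte precursor markers 2 of 5, of the cortical excitatory neuron markers 3 of 8 and of the endothelial markers 3 of 6 were higher in TG. No marker of any of these lists was at 0 in every library, and their part in the differences of the synthesis genes was not tested.

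**Figure D5:**
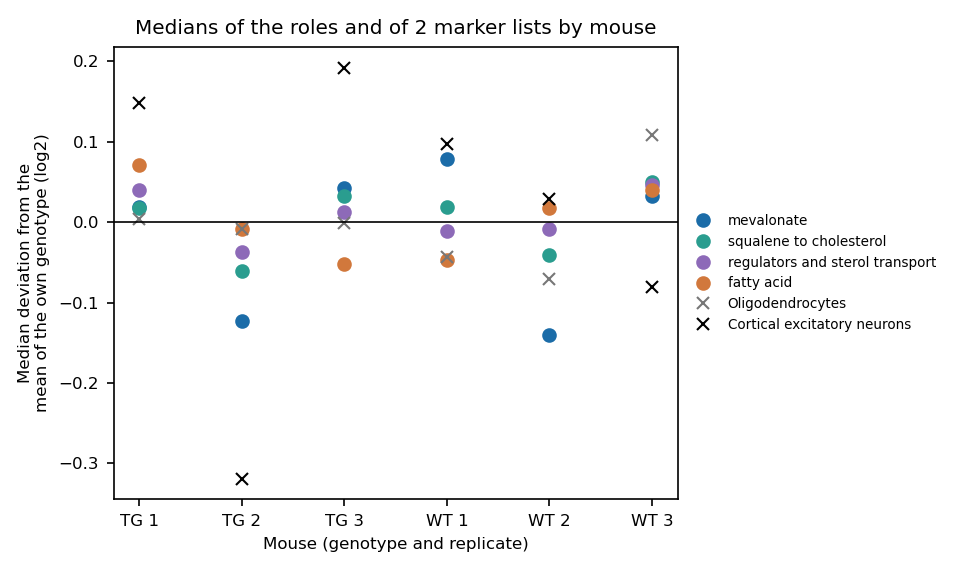
Median deviation (log2) from the mean of the own genotype in each mouse, for the 4 roles (coloured circles) and for the oligodendrocyte and cortical excitatory neuron markers (crosses). The mevalonate median is lowest in TG 2 (-0.123) and WT 2 (-0.14), the cortical median is lowest in TG 2 (-0.319), and the oligodendrocyte median is highest in WT 3 (0.109).

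Genes around the synthesis pathways were read from 4 further lists, none of whose genes was called in limma. Of 12 genes that process SREBPs or degrade their partners, 7 were higher in TG, with a median log2 fold change of 0.03. Among them Sec23a, a coat protein of the vesicles that leave the endoplasmic reticulum, was counted at 2583, 2623 and 2664 in TG 1 to 3 and 2305, 2518 and 2382 in WT 1 to 3. All TG mice were above all WT mice, with a difference of 0.13 ± 0.0492 (SE), an unadjusted limma p of 0.0252 and an adjusted p of 0.971. The proteases that cut SREBPs, encoded by Mbtps1 and Mbtps2, differed by -0.06 and -1.1e-05.

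Of 18 tested genes of later sterol steps and sterol handling, 13 were lower in TG, with a median of -0.03, none had an unadjusted limma p under 0.05, and the groups overlapped in all 18. They include Lrp1, a lipoprotein receptor (-0.04), and Cyp46a1, the neuronal cholesterol hydroxylase (-0.04). Ch25h, with a mean of 7.84, did not pass the filter. Of the 9 genes of the isoprenoid branch, 5 were higher, with a median of 0.04 and none under 0.05. The groups did not overlap in 3 of the 9 (33.3%, against 10.1% of all genes), Nus1 (0.06), Pdss2 (0.05) and Coq2 (-0.05), which are named after their values were seen.

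Of 28 genes of fatty acid activation, elongation and supply, 13 were higher in TG, the median was -0.01, and 3 had an unadjusted limma p under 0.05 (10.7% of the list against 4.31% of all genes). In 6 of the 28 (21.4%, against 10.1% of all genes) the groups did not overlap. Acsl4, which activates arachidonate, was counted at 2501, 2421 and 2734 in TG 1 to 3 and 2304, 2326 and 2253 in WT 1 to 3. The groups did not overlap, and the difference was 0.15 ± 0.0545 (SE) with an unadjusted limma p of 0.0184. Hacd3, a dehydratase of fatty acid elongation, was counted at 5166, 5142 and 4922 in TG 1 to 3 and 4654, 4868 and 4542 in WT 1 to 3, also without overlap, and differed by 0.12 ± 0.0466 (SE) with an unadjusted limma p of 0.0317.

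Scd4, another desaturase of the same cluster on chromosome 19, was counted at only 11.2, 11.2 and 10.7 in TG 1 to 3 and 19.5, 29.9 and 20.6 in WT 1 to 3. The WT mice were all above the TG mice, and the difference was -0.99 ± 0.27 (SE), with an interval of -1.58 to -0.40, an unadjusted limma p of 0.00360 and an adjusted p of 0.971. It ranged from -1.10 to -0.80 over the alternatives. Its sister gene Scd3 differed by 0.02. The adjusted p of Acsl4, Hacd3, Scd4 and Sec23a was 0.971 in limma, and none was called by DESeq2, edgeR or limma-voom.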

How the data were processed

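Striatal RNA of 3 TG and 3 WT mice was sequenced by the authors as paired-end reads from TruSeq v2 libraries. Per the labels and the methods, the reads were trimmed with Trimmomatic 0.35, aligned to GRCm38 with TopHat2 2.1.0 and counted per gene with HTSeq, and the counts were scaled with DESeq2. The gene annotation release and the strand setting are not given in the sources used here. The values the authors deposited are a signal, normalized read counts with 2 decimals, and every value gave whole reads (tolerance 0.01) when divided by the value of 1 read in its library, which recovered 27689589 to 36647626 reads per library. Every column belonged to a sample.

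IDs were matched to GENCODE M21 (45229 of 46078). Genes with a mean of at least 10 (17605) were tested in limma 3.58.1 (R 4.3.3) on log2(value + 1), TG against WT, using its mean-variance trend and Benjamini-Hochberg adjustment over all genes tested, with calls at an adjusted p under 0.05. Fold changes are on this log2 scale, which understates those of low genes. The recovered reads were also tested with DESeq2 1.42.0, edgeR 4.0.16 and limma-voom. Other settings left out each library in turn, blocked on the replicate number, scaled by TMM or by library totals, set the pseudocount to 0.5 or 5, or moved the filter to a mean of 50 or dropped it. The fit was tested on simulated data before use. All 3 pairs of same-numbered libraries had correlations of their deviations from the group means below 0.1 (0.0474, 0.0163 and 0.0928), so the numbers were not used to pair mice. The labels do not say that the libraries are separate animals, which the methods do, and p-values measure the spread between these libraries.

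The members and the lists were chosen with earlier results of these data known. Values in every library are given for members with an unadjusted p under 0.05 or without overlap, for the 3 members of each role with the largest difference, for the member of each role with the highest level per kb, and for Srebf1, Srebf2, Scap, Insig1 and Insig2. The genes of the other lists with an unadjusted p under 0.05 and the 2 most abundant markers of a list were also named, except that some genes are not reported here. Shared sequence was counted as read-length words of the longest coding transcript found in transcripts of other genes. Motifs were searched on both strands of the windows.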

Additional observations from a re-analysis of the deposited data

How the results depend on the processing

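None of the 32 genes was called under any of the 17 alternatives run. Counts of all genes called were 7 with DESeq2, 5 without the filter, 4 at an adjusted p of 0.1 and 1 to 2 with 1 library left out (2 without TG 2 or TG 3), against 1 in limma. The number of members higher in TG was 18 in edgeR, 19 at a mean of at least 50, where Fdps has no value, and 16 to 20 with 1 library left out. Their median log2 fold change was 0.0232 to 0.0348 under the other scalings, filters, pseudocounts and tools, and -0.0046 to 0.0644 with 1 library left out. With the replicate block, 20 members were higher with a median of 0.0296, 0 members and 1 gene were called, and no call changed; TG 1 correlated best with WT 2 rather than with its own number. The direction held in 21 members throughout. In edgeR, Lss (-0.00026) and Acly (-0.00036) turned. With 1 library left out, 11 turned, with ranges of -0.0661 to 0.0518 (Acat2), -0.0139 to 0.127 (Mvd), -8.3e-05 to 0.206 (Fdps), -0.057 to 0.0903 (Lss), -0.0023 to 0.0999 (Msmo1), -0.0686 to 0.0226 (Nsdhl), -0.0596 to 0.0099 (Dhcr7), -0.0325 to 0.0948 (Insig1), -0.0561 to 0.0517 (Acly), -0.0642 to 0.0018 (Scd2) and -0.115 to 0.0049 (Fads1). The cause was not tested. With 3 libraries a genotype, an exact permutation test cannot go below 0.1.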
